A study of Drosophila melanogaster with 6 samples.

Results

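The expression of 10 genes of phototransduction and of visual chromophore supply was followed in third-instar eye-antennal discs of Drosophila melanogaster, the larval epithelia that become the eye, antenna and head cuticle. The genes were inaC, ninaA, ninaB, ninaC, norpA, Galphaq, rdgA, rdgB, eys and Arr2, taken by symbol from a count table of 17609 gene symbols, and all 10 were found there and had counts. They were chosen as a pathway, with earlier results of the same libraries known, so their values may have had a part in the choice. The control discs carried the driver ey-Gal4 over W1118 (3 biological replicates), and the dTet discs carried ey-Gal4 with UAS-dTet, which encodes the Tet dioxygenase of the fly (3 biological replicates). Both groups thus shared ey-Gal4, which drives expression in the eye field, and RNA was taken from the whole eye-antennal disc. Where in the disc the driver was active was not measured here. The control held no UAS transgene that the labels name. The design asked how dTet overexpression in the developing eye alters gene expression. Tet itself stood at 315.8, 348.2 and 384.7 CPM (each count relative to the scaled library size) in the controls and at 364.5, 456.9 and 416.1 CPM in the dTet discs. The table has 1 entry for Tet, in which RNA of the resident gene and of the transgene cannot be told apart. The groups overlapped, and the entry did not pass the test (log2 fold change 0.24, edgeR adjusted p = 0.244).

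In the fly photoreceptor, light turns rhodopsin, an opsin bound to a retinoid chromophore, into an activator of a Gq protein. The Gq alpha subunit switches on phospholipase C, the cleavage of a membrane phosphoinositide opens TRP channels, and arrestin, protein kinase C and lipid recycling end the response and restore the membrane. The chromophore is made from dietary carotenoids by a dedicated oxygenase. In the larval disc photoreceptors are being recruited behind the morphogenetic furrow, and the light-sensing organelle, the rhabdomere, forms later, in the pupa. The larva's own eye, Bolwig's organ, is a small group of mature photoreceptors whose nerve runs across the eye disc.

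The libraries held 16395675 to 20242356 counted read pairs, of which the 10 genes together took 2918 to 5827. Of 9417 genes tested in the whole table, 11.4% differed between the groups at an adjusted p under 0.05, with 719 lower and 355 higher in dTet discs. The lower genes numbered 1823 without control replicate 1 and 424 without control replicate 3, and the higher genes 131 to 1408 when any single library was left out. The tissue label was checked on its markers. All 5 eye field genes listed (ey, toy, so, eya and Optix) were present in the controls, summing to 1034 to 1183 CPM, and all 5 were lower in dTet discs, at 278.4 to 296.5 CPM. All 6 antennal disc genes listed were present in both groups, and 5 of them were higher in dTet discs, with sums of 690.5 to 746.8 CPM in control and 1153 to 1216 CPM in dTet.

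Of the 10 visual genes, 3 fell in dTet discs (inaC, ninaB and ninaA) and 7 did not pass the test (edgeR quasi-likelihood, Benjamini-Hochberg over all genes tested). Across all tested genes 7.64% fell. No visual gene was called higher, where 3.77% of all genes were; 6 of the 10 had an unadjusted p under 0.05, as did 28.8% of all genes. DESeq2 called 5 lower and 1, ninaC, higher, and it also called more genes over the whole table, 1075 lower and 658 higher. The 3 dTet libraries lay wholly beyond the 3 controls for 7 of the 10 genes, against 32.6% of all tested genes, with dTet below for 5 of them and above for ninaC and Arr2. The median log2 fold change of the 10 genes was -0.30, compared with -0.02 over all tested genes. Summed over the 10 genes the level was 242.2 to 272.0 CPM in control and 174.5 to 206.0 CPM in dTet discs. Of this, inaC, ninaA and ninaB together made 39.0 to 52.4 CPM in control and 0 to 0.179 CPM in dTet discs. The other 7 genes summed to 202.9 to 219.6 CPM in control and 174.3 to 205.9 CPM in dTet discs, so their groups overlapped. Sorted by the call and by overlap of the groups, inaC, ninaB and, close to the threshold, ninaA were called lower. The groups overlapped for norpA, rdgA and rdgB. The other 4 genes did not pass although their groups did not overlap (Galphaq, eys, ninaC, Arr2). In RNA of whole discs, fewer cells of a type and less RNA per cell cannot be told apart.

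**Figure D1:**
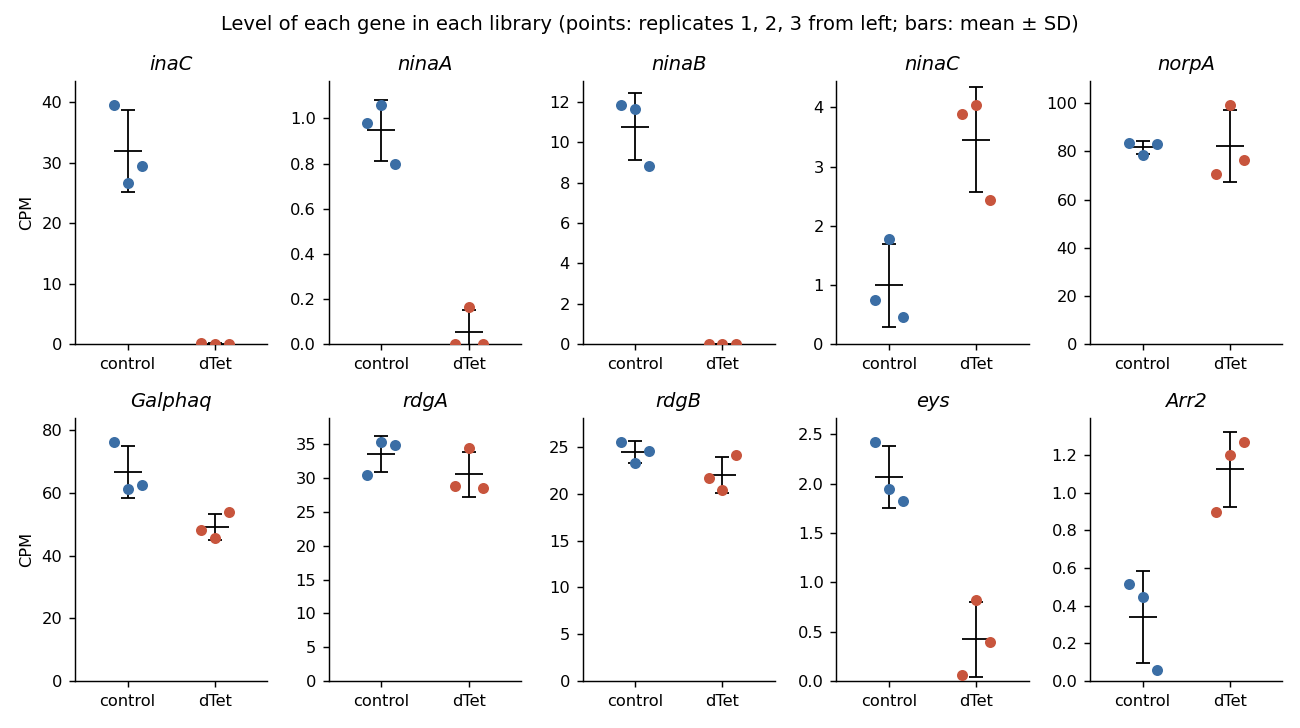
CPM of each of the 10 genes (y axes, each with its own scale from 0) in the 3 control and 3 dTet libraries (points), with mean and SD. inaC, ninaB and ninaA are at or near 0 in dTet, norpA, rdgA and rdgB overlap between groups, and ninaC and Arr2 are higher in each dTet library than in any control.

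ninaB encodes the carotenoid oxygenase that cleaves and isomerizes carotenoids to visual chromophore. Its 4 merged exons (2164 bases) lie on chromosome arm 3R at 13700565 to 13703164, plus strand, in the dm6 genome. Its counts were 254, 209 and 155 in the control libraries, or 11.9, 11.7 and 8.85 CPM, and 0 in each dTet library. Each control library alone held 155 or more of its read pairs, so the loss did not hang on a single control. A count of 0 allows up to 3 counts, which is 0.147 to 0.179 CPM in a single dTet library. Set against 3 counts over the 3 dTet libraries (0.0541 CPM), ninaB was at least 201.0-fold lower in dTet discs (adjusted p = 9.98e-05, and 8.15e-05 to 0.000889 when a library was left out). Its exons share 81 bases with Adgf-D and 63 bases with f-cup on the opposite strand; the counting used strand.

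ninaA encodes a cyclophilin of the endoplasmic reticulum that brings the major rhodopsin to the rhabdomere. It was a rare transcript here, with 21, 19 and 14 counts in the controls (0.980, 1.06 and 0.799 CPM) and 0, 3 and 0 counts in dTet discs (0, 0.164 and 0 CPM). All of its dTet counts came from dTet replicate 2, and even this library lay below every control. The ratio of counts, scaled for library size, was 17.6 in favour of the controls, with an exact 95% counting interval of 5.70 to 87.8. Without dTet replicate 3 or dTet replicate 1 the ratio was 11.1 or 12.3, and without dTet replicate 2, which left no dTet count, ninaA was at least 11.8-fold lower against 3 counts over the other 2 libraries. The call stood near its threshold (adjusted p = 0.0489). It ended when any library other than dTet replicate 2 was left out (0.0574 to 0.161). The call also ended without a filter on low counts (0.0832) and with the replicate number as a block (0.0867). The whole exon length of ninaA on 2L (877302 to 878270, 871 bases) is also covered by exons of CG15824 on the opposite strand, which itself had 8 counts in the 6 libraries.

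RNA of the opsins, the protein part of rhodopsin, was mostly absent or rare in both groups. Of the 7 opsin genes, ninaE (which encodes the major rhodopsin of the outer photoreceptors), Rh2 and Rh3 had no count in any library. Only Rh5 and Rh6, the opsins of Bolwig's organ as well as of adult inner photoreceptors, were abundant enough to be tested, and neither passed. Rh6 was at 2.57, 1.51 and 1.48 CPM in control and at 0.598, 1.04 and 1.03 CPM in dTet discs (log2 fold change -1.06, SE 0.57, adjusted p = 0.258). Every dTet value of Rh6 was below every control, whereas the groups overlapped for Rh5 (log2 fold change -1.05, adjusted p = 0.409). Among the other 2 chaperone genes listed for rhodopsin transport, Xport-A and Xport-B, no count was found, and the general chaperone gene Cnx99A (calnexin) was at 196.1 ± 11.5 CPM in control and 232.6 ± 2.69 CPM in dTet discs (adjusted p = 0.138).

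Of the other 6 genes of carotenoid uptake and the retinoid cycle, 2 were tested and 1 fell. pinta, which encodes a retinoid-binding protein needed for chromophore formation, stood at 12.3, 11.9 and 10.4 CPM in control and at 2.69, 1.48 and 3.96 CPM in dTet discs. The groups were well apart, and pinta fell 4.24-fold (log2 SE 0.37, adjusted p = 0.00628), a call that no alternative ended. santa-maria, a scavenger receptor of carotenoid uptake, was at 6.49 ± 1.03 and 4.46 ± 0.554 CPM and did not pass (log2 fold change -0.54, adjusted p = 0.269). The remaining 4 were too low to test: ninaD, the receptor that takes up carotenoids in the gut, had 10 control counts in all, ninaG 7 and rdhB 14, each with 0 in dTet discs, whereas Pdh, a retinol dehydrogenase gene, had 3 control and 25 dTet counts.

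Among the 7 of the 10 genes that did not pass, the genes of the Gq alpha subunit and of the enzyme it activates had the highest CPM. Galphaq, the alpha subunit gene of Gq on 2R (12612740 to 12623197), was measured at 76.4, 61.4 and 62.7 CPM in control and 48.1, 45.8 and 53.9 CPM in dTet discs. All dTet values lay below all controls, with the highest control in replicate 1. A log2 fold change of -0.44 was fitted (SE 0.13, 95% interval -0.73 to -0.15), and the adjusted p was 0.0581. It passed with upper quartile scaling (0.0469), without a filter on low counts (0.0386), by DESeq2 (0.0264) and without control replicate 1 (0.0319), while other alternatives left it above the threshold, up to 0.182. Of its 6910 exon bases, 3050 are shared on the same strand with CG45086, an annotated reading frame inside the gene. Pairs that touch both genes are left out by the counting program's default, and CG45086 had 0 counts, so the level of Galphaq rests on the remaining 3860 bases.

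Ggamma30A, the gamma subunit gene of the eye's Gq protein, was at 7.98, 8.25 and 3.31 CPM in control and 1.79, 3.33 and 2.05 CPM in dTet discs. Control replicate 3 was within the dTet range, and the gene did not pass (log2 fold change -1.44, SE 0.46, adjusted p = 0.0757). Its partner Gbeta76C, the eye's beta subunit gene, had 11 control and 4 dTet counts and was not tested.

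norpA encodes the phospholipase C that cleaves the phosphoinositide. On X at 4322626 to 4365408, it was at 83.5, 78.6 and 82.9 CPM in control and 70.8, 99.2 and 76.4 CPM in dTet discs. The dTet libraries lay on both sides of the controls, with replicate 2 the highest of all 6. A log2 fold change of 0.01 was fitted (SE 0.14, 95% interval -0.30 to 0.32), so that the interval covers fold changes from 0.811 to 1.25, and its sign turned with the scaling and with the library left out.

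rdgA, the diacylglycerol kinase gene, and rdgB, the gene of a phosphatidylinositol transfer protein, serve the return of the lipid to the membrane. rdgA was at 30.4, 35.4 and 34.9 CPM in control and 28.9, 34.4 and 28.5 CPM in dTet discs, and the groups overlapped. Its fitted log2 change was -0.13 (SE 0.14, 95% interval -0.45 to 0.18, adjusted p = 0.559). rdgB was at 25.6, 23.2 and 24.6 CPM in control and 21.6, 20.4 and 24.1 CPM in dTet discs, with dTet replicate 3 within the control range. Its fitted log2 change was -0.15 (SE 0.14, 95% interval -0.47 to 0.17, adjusted p = 0.517). For norpA, rdgA and rdgB the intervals run down to log2 fold changes of -0.30, -0.45 and -0.47, beside the -0.44 measured for Galphaq.

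Of 8 tested genes in the rest of the phosphoinositide cycle, 3 fell and none rose, where 7.64% and 3.77% of all tested genes did. PIP5K59B, a phosphatidylinositol phosphate kinase gene, was at 5.46, 4.01 and 6.45 CPM in control and 0.658, 0.492 and 0.244 CPM in dTet discs. It fell 11.4-fold (log2 SE 0.53, adjusted p = 0.0026). stops, whose product keeps the phospholipase C protein at its level, fell from 5.37 ± 1.34 to 1.47 ± 0.866 CPM (3.61-fold, adjusted p = 0.0461; 5.41-fold without dTet replicate 3). Its call ended without any other library except control replicate 1 (0.106 to 0.173), and with the replicate number as a block (0.0629). inaE, a diacylglycerol lipase gene, fell 1.61-fold from 34.4 ± 2.65 to 21.4 ± 1.96 CPM (adjusted p = 0.0134), a call that ended without control replicate 3 (0.0556) or dTet replicate 1 (0.0519). The most abundant of those that did not pass were Pi4KIIIalpha (log2 fold change 0.39, adjusted p = 0.0908), a phosphatidylinositol kinase gene, and Cds (-0.25, adjusted p = 0.207), a synthase of the lipid's precursor.

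**Figure D2:**
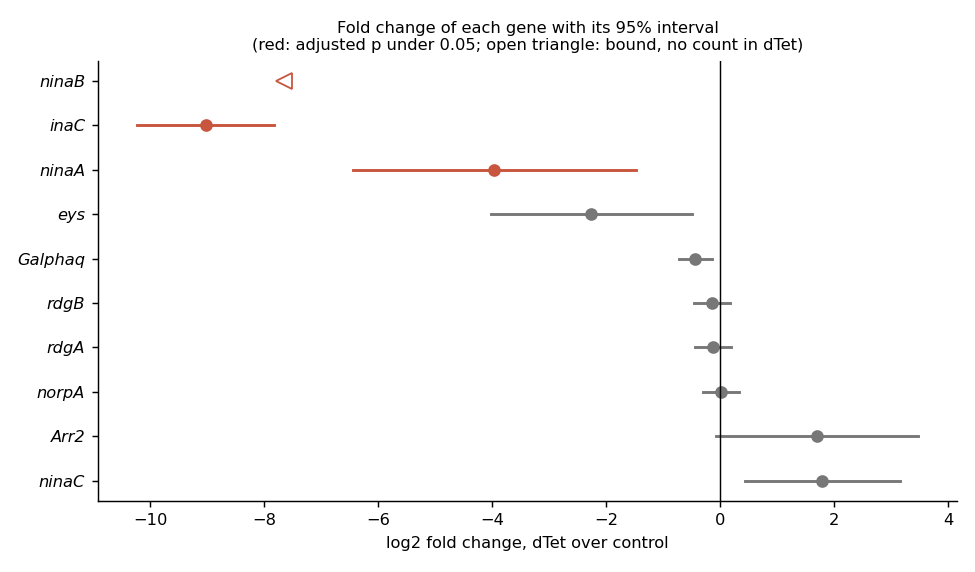
Log2 fold change of dTet over control (x axis) for the 10 genes, from the edgeR fit over 3 libraries a group. The 95% intervals are symmetric and use an SE derived from the F statistic. That of inaC rests on 3 dTet counts in replicate 1 and may be too narrow. The open triangle is the bound for ninaB, which had no dTet count. The intervals of norpA, rdgA, rdgB and Arr2 include 0, and that of Galphaq ends at -0.15.

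inaC encodes the protein kinase C of photoreceptors, which sits in a signalling complex on the scaffold protein INAD and shuts the response off. On 2R at 16898535 to 16901575 (11 merged exons, 2351 bases), it had 847, 478 and 515 counts in controls, or 39.5, 26.6 and 29.4 CPM. dTet discs held 3, 0 and 0 counts, all of them in replicate 1, which is 0.179 CPM there. inaC was thus among the better expressed of the 10 genes in control discs and nearly absent in dTet discs. The ratio of scaled counts was 598.4, with an exact 95% counting interval of 204.4 to 2904 that covers counting error only. The fall passed under every alternative run, with adjusted p up to 0.00151 (8.66e-06 as reported), and no dTet count was left without dTet replicate 1. The fitted log2 fold change was -9.03, and -8.43 without dTet replicate 3.

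The nearest relative of inaC listed, Pkc53E, another conventional protein kinase C gene, was at 0.793, 1.12 and 0.571 CPM in control and 0.179, 0.819 and 0.195 CPM in dTet discs. These groups overlapped, and the log2 fold change of -1.04 (SE 0.81) did not pass (adjusted p = 0.424). The scaffold gene inaD itself was rare and alike in level, at 0.706 ± 0.114 CPM in control and 0.713 ± 0.147 CPM in dTet discs (adjusted p = 0.988). rtp, which encodes a partner of the ninaC protein, was at 2.39 ± 0.391 and 2.29 ± 1.54 CPM (adjusted p = 0.964). None of the 3 tested partners passed, with SEs of 0.59 to 0.81 on the log2 scale at these low counts.

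ninaC encodes a protein kinase joined to a myosin, found in the rhabdomere and the cell body. Its counts were 16, 32 and 8 in controls (0.747, 1.78 and 0.457 CPM) and 65, 74 and 50 in dTet discs (3.89, 4.04 and 2.44 CPM). Every dTet library was above every control, with the smallest gap between control replicate 2 and dTet replicate 3. A log2 fold change of 1.79 was fitted (SE 0.60, 95% interval 0.43 to 3.15), short of the threshold (adjusted p = 0.0897). DESeq2 put it at 0.0237, and without a single library the edgeR value was 0.0598 to 0.27. The log2 fold change was 2.50 without control replicate 2.

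The light-activated channels that this complex serves were close to absent. trp, the gene of the main channel, had 2 counts, both in control replicate 1. trpl, the second channel gene, had 0, 3 and 1 counts in controls and 3, 29 and 11 in dTet discs, and was too low to be tested. Of the inaF genes, which lie together and act on the TRP channel, inaF-A, inaF-C and inaF-D had no count and inaF-B had 2. Calx, the sodium-calcium exchanger gene, was at 0.484 ± 0.173 CPM in control and 0.824 ± 0.191 CPM in dTet discs (adjusted p = 0.477).

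Arr2 encodes the major arrestin, which binds activated rhodopsin and ends its signal. On 3L at 8647261 to 8648936, minus strand, it had 11, 8 and 1 counts in controls (0.513, 0.446 and 0.0571 CPM) and 15, 22 and 26 counts in dTet discs (0.897, 1.20 and 1.27 CPM). The groups did not overlap, and control replicate 3 held a single count. A log2 fold change of 1.70 was fitted (SE 0.79, 95% interval -0.08 to 3.47), short of the threshold (adjusted p = 0.193; 0.172 to 0.47 over the alternatives). Its paralog Arr1, the other photoreceptor arrestin gene, was at 0.824 ± 0.435 and 0.812 ± 0.187 CPM, with groups that overlapped (adjusted p = 0.984).

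Of 7 tested genes that end the light response besides Arr2, rdgC alone was called. It encodes a calcium-dependent phosphatase of rhodopsin. It fell from 5.41, 3.07 and 2.80 CPM in controls to 0.478, 0.546 and 0.929 CPM in dTet discs (5.70-fold, log2 SE 0.54, adjusted p = 0.0173). This call ended when control replicate 3 (0.0514) was left out, and likewise for dTet replicate 1 (0.0543) and dTet replicate 2 (0.0546). It also ended with the replicate number as a block (0.0529). The broadly expressed kinase genes CaMKII (log2 fold change -0.05, SE 0.15) and Gprk1 (-0.16, SE 0.15) did not pass (adjusted p = 0.836 and 0.524).

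eys encodes a secreted matrix protein that fills and opens the space between the rhabdomeres. On 2L at 2311680 to 2358944, it had 52, 35 and 32 counts in controls (2.43, 1.95 and 1.83 CPM) and 1, 15 and 8 in dTet discs (0.0598, 0.819 and 0.391 CPM). All dTet values were below all controls, but they differed widely among themselves, with a single count in dTet replicate 1. A log2 fold change of -2.26 was fitted (SE 0.78, 95% interval -4.03 to -0.49), short of the threshold (adjusted p = 0.0985), while DESeq2 put it at 0.0318. Without dTet replicate 2 the log2 fold change was -3.12 (adjusted p = 0.0736). Its 67 exon bases in common with CG9967 are on the opposite strand.

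chp, which encodes chaoptin, an adhesion protein of rhabdomere membranes, was at 81.1, 69.5 and 83.2 CPM in control and 10.2, 12.1 and 13.0 CPM in dTet discs. It fell 6.62-fold (log2 SE 0.14, adjusted p = 4.51e-06) with the groups far apart. prom, which encodes prominin, a binding partner of the eys protein, was rare at 0.855 ± 0.559 and 0.255 ± 0.401 CPM and did not pass (log2 fold change -1.77, adjusted p = 0.352). crb, a gene of apical membrane identity in all disc epithelium, was at 485.0 ± 35.9 and 521.9 ± 26.9 CPM (adjusted p = 0.557).

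**Figure D3:**
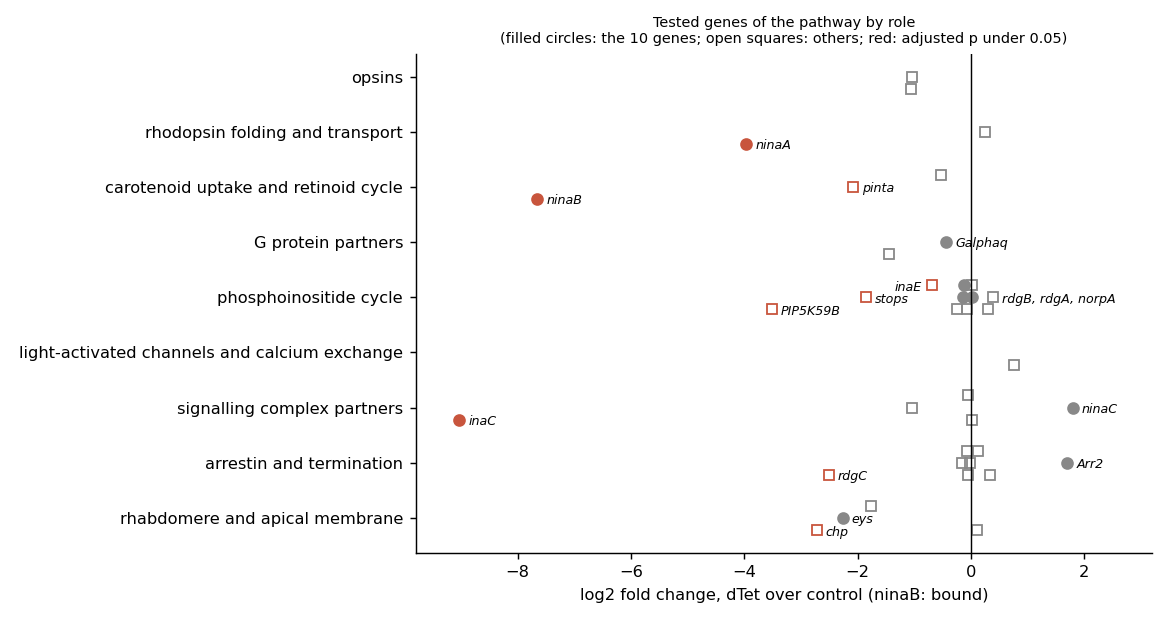
Log2 fold change of dTet over control (x axis) for every tested gene of the pathway, in rows by role; filled circles are the 10 genes, open squares the other listed genes, and red marks an adjusted p under 0.05. The called genes all lie to the left of 0, and ninaC and Arr2 lie farthest to the right without passing.

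Counted over the pathway outside the 10 genes, 47 genes were listed, 8 had no count in any library, 11 had counts too low to test and 28 were tested. Of these 28, 6 fell (pinta, inaE, stops, PIP5K59B, rdgC and chp) and 0 rose, beside 7.64% lower and 3.77% higher among all tested genes. Their median log2 fold change was -0.12, beside -0.02 for all tested genes. Without control replicate 3 or dTet replicate 1 the number was 3 (pinta, PIP5K59B and chp). Without control replicate 1, Cnx99A and Pi4KIIIalpha were called higher. DESeq2 called 7 lower, adding Ggamma30A, and 0 higher, beside 1075 lower and 658 higher over the whole table.

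Levels were compared between genes per kilobase of exon, since a longer transcript gives more read pairs. In control discs the order was inaC at 13.6 ± 2.89 CPM per kilobase, norpA at 9.84 ± 0.321, Galphaq at 9.67 ± 1.20, ninaB at 4.98 ± 0.776, rdgB at 2.64 ± 0.126, rdgA at 2.44 ± 0.198 and ninaA at 1.09 ± 0.153. At the bottom stood eys at 0.244 ± 0.0374, Arr2 at 0.219 ± 0.159 and ninaC at 0.184 ± 0.129 CPM per kilobase. norpA and Galphaq overlapped in range, as did rdgB and rdgA, eys and Arr2, and Arr2 and ninaC; the other neighbours were apart. Over the 3860 bases of Galphaq that CG45086 does not share, a length chosen after seeing the data, Galphaq stood at 17.3 ± 2.15 in control and 12.8 ± 1.08 CPM per kilobase in dTet discs, first in both groups. In this scale inaC was at the 46.8th percentile of all tested genes in controls and ninaB at the 27.1st, whereas ninaC, Arr2 and eys were at the 1.65th, 2.15th and 2.62nd.

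In dTet discs the order of levels per kilobase was norpA (9.90 ± 1.81), Galphaq (7.13 ± 0.605), rdgB (2.38 ± 0.206), rdgA (2.22 ± 0.241), Arr2 (0.726 ± 0.129) and ninaC (0.637 ± 0.162). Below them came ninaA (0.0627 ± 0.109), eys (0.0499 ± 0.0449), inaC (0.0254 ± 0.044) and ninaB at 0, and these 4 overlapped in range with their neighbours among themselves. In this order by whole exon length, inaC went from the first place to the ninth, and Arr2 and ninaC from the last places to the fifth and sixth. Over its unshared bases Galphaq stood above inaC in control (17.3 against 13.6) and above norpA in dTet discs (12.8 against 9.90). The percentile of inaC among tested genes was 0.86 in dTet discs, while those of ninaC and Arr2 were 11.4 and 12.5.

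**Figure D4:**
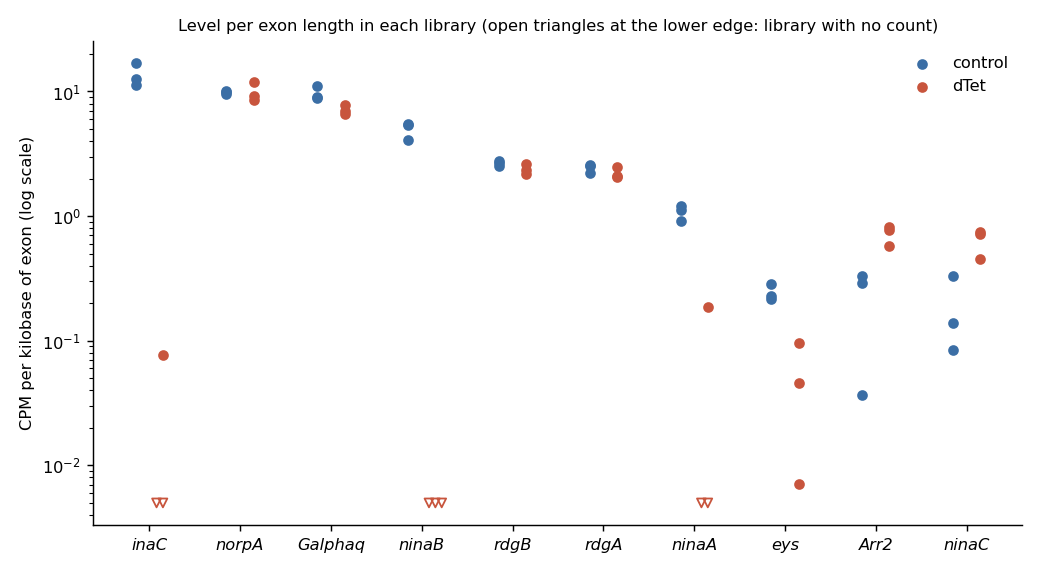
CPM per kilobase of the whole exon length (y axis, log scale) of the 10 genes in control (blue) and dTet (red) libraries, ordered by the control mean; open triangles at the lower edge stand for libraries with no count. The control levels run from 13.6 for inaC to 0.184 for ninaC, and the 2 groups lie close together for norpA, rdgB and rdgA.

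Genes with the most similar values over the 6 libraries were looked up for the 5 genes whose mean log2 CPM was 1 or more. Likeness was the root mean square difference of log2 CPM, each gene taken relative to its control mean, among 7397 protein-coding genes. Genes picked in this way have fold changes close to that of the gene they resemble, so their direction follows from the choice. Nearest to inaC were Ekar, a glutamate receptor gene (0.45 log2 units), CG34377 (0.57) and CG5653 (0.63). All 3 fell, with log2 fold changes of -7.70, -8.58 and -8.44, and in controls Ekar stood at 42.6 ± 17.1 and CG34377 at 224.6 ± 40.0 CPM. Nearest to Galphaq were thoc5 (0.04), fw (0.04) and Orct (0.04). thoc5 passed the test at a log2 fold change of -0.44 (adjusted p = 0.0457), the same size as that of Galphaq, which did not. The genes nearest to norpA (fs(1)K10, CG17385 and CG3776), rdgA (Sec61gamma, CG6511 and Alg1) and rdgB (p38a, CG6707 and bib) differed from them by 0.04 to 0.06 log2 units, and none of these 9 passed.

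Markers of cell types were looked up as well, beside the 7.64% of all tested genes that fell. All 8 genes listed for photoreceptor differentiation in the disc fell, among them chp, which is also one of the pathway genes above. Their summed levels were 869.2 to 905.1 CPM in control and 112.7 to 122.1 CPM in dTet discs. Of 8 genes listed for brain neurons and synapses 5 fell (brp, nSyb, Syt1, futsch and para), with sums of 448.8 to 479.1 CPM against 38.7 to 41.3 CPM. Most of these sums was futsch, which averaged 383.8 CPM in control and 33.0 CPM in dTet discs. ChAT, VGlut and Gad1 of the same list were low in control (means of 0.874, 2.64 and 0.817 CPM) and did not pass. Of 8 glial genes 3 fell (repo, moody and loco), and all 8 summed to 402.4 to 481.2 against 329.1 to 334.6 CPM. The largest part of these sums was nrv2, which averaged 245.1 CPM in control and 221.0 CPM in dTet discs. nrv2 did not pass (edgeR adjusted p = 0.427), and neither did Eaat1, gcm, wrapper and alrm. No defining marker of these lists was at 0 in all libraries. The opsins Rh5 and Rh6 of Bolwig's organ summed to 2.51 to 3.50 CPM in control and 1.15 to 1.71 CPM in dTet discs. The part of these cells in the falls of the visual genes was not tested.

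Markers of tissues that can cling to a dissected disc were present in both groups. The 6 fat body genes varied most, with sums of 600.6 to 2581 CPM in control and 412.3 to 1474 CPM in dTet discs, and none was called. Hemocyte genes summed to 259.9 to 391.5 CPM in control and 179.5 to 202.6 CPM in dTet discs (PPO1 and PPO2 of 7 fell), and muscle genes to 781.5 to 873.1 CPM and 917.7 to 1318 CPM (Mhc and bt of 8 rose). Neuroblast genes summed to 57.1 to 67.8 and 47.7 to 49.3 CPM, and 0 of 4 were called. Their part in the values of the visual genes was not tested.

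Among 7 regulators of late photoreceptor genes, 2 fell and 2 rose. Pph13, a homeodomain factor that acts on promoters of rhodopsins and other visual genes, averaged 1.15 ± 0.18 CPM over the controls and was not counted in dTet discs, which makes it at least 21.5-fold lower against 3 counts over the group. pros, a factor of R7 and cone cells, fell from 36.9 ± 11.5 to 13.5 ± 7.01 CPM. oc, which also acts on rhodopsin promoters and patterns the head and ocelli, rose from 34.5 ± 6.88 to 60.3 ± 4.56 CPM, and ss, a factor of antennal and R7 fate, from 32.9 ± 3.28 to 59.0 ± 8.15 CPM. gl, a transcription factor without which photoreceptors do not form, stood at 171.7 ± 10.5 CPM in control and 1.67 ± 1.02 CPM in dTet discs.

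**Figure D5:**
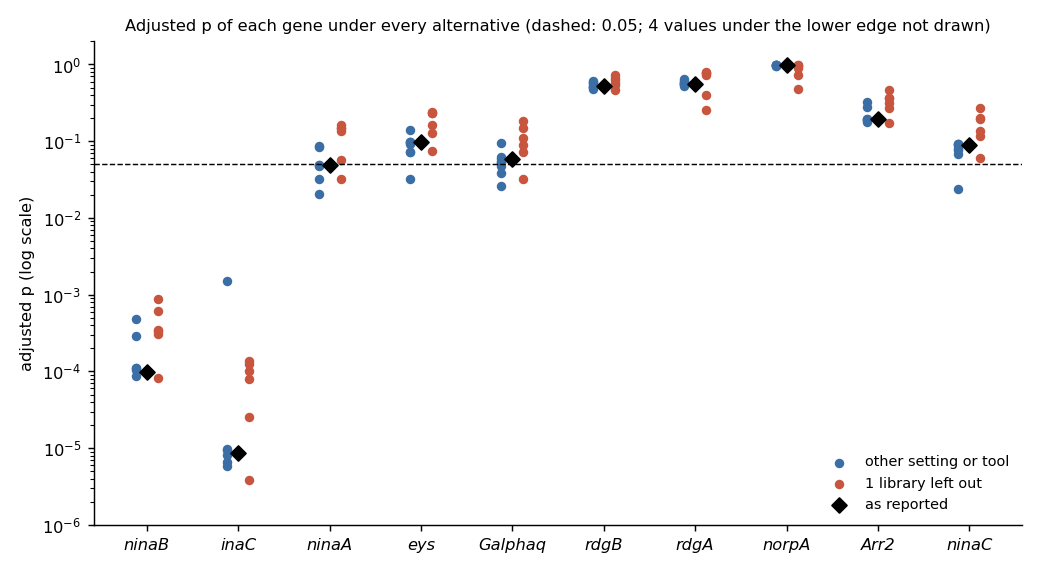
Adjusted p (y axis, log scale) of each of the 10 genes as reported (black), under other settings or tools (blue) and with 1 library left out (red), with the threshold of 0.05 dashed and 4 values below the axis not drawn. ninaB and inaC stay under the threshold throughout, ninaA, eys, Galphaq and ninaC lie on both sides of it, and rdgA, rdgB, norpA and Arr2 stay above it.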

How the data were processed

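Per the labels' protocols, libraries were strand-specific and made from total RNA of eye-antennal discs. Per the submitters' processing notes, FastQC 0.12.1 was run and HISAT2 2.2.0 aligned reads to dm6. The deposited values are counts of whole read pairs by gene symbol from featureCounts 2.0.6 on FlyBase annotation 6.45, over exons, both mates mapped, strand setting 2, per the file headers; the authors did not normalize them, and pairs that fit several places or genes are left out by default. The exon length column of the same table, also deposited by the authors, was used for levels per kilobase; for Galphaq the exon bases not shared with another gene on its strand were tried too, after the data were seen.

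Genes were kept by filterByExpr (edgeR 4.0.16, R 4.3.3), scaled by TMM and tested by glmQLFTest on all 6 libraries without covariates, two-sided, with Benjamini-Hochberg adjustment at 0.05. The SE of a log2 fold change was derived from its F statistic, and its 95% interval is symmetric, from this SE and a t quantile. CPM are counts over TMM-scaled library sizes, given as mean ± SD (n = 3 each). Counting intervals are exact at 95%, floors are 3 counts, and both cover counting error only, since read pairs without molecular identifiers are not molecules. The test was tried on simulated counts first. Members and lists were chosen with earlier results of these data known. The genes named are the 10 members, the called genes of each pathway list and up to 2 more of highest mean CPM per list; genes without counts, those that spell out a small count and pathway genes beyond this rule (Pkc53E, Arr1, Xport-A, ninaD, ninaG, rdhB, Pdh, trp and the inaF genes) were added after their values were seen. List symbols were matched through RefSeq synonyms where needed. Alternatives were DESeq2 1.42.0 size factors, upper quartile scaling, no filter, a filter at 1 CPM in 3 libraries, DESeq2, limma-voom (limma 3.58.1), the replicate number as a block, small RNA genes removed and each library left out. No sequence of these genes was used here.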

Additional observations from a re-analysis of the deposited data

How the results depend on the processing

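Without any one library the genes called lower numbered 424 to 1823 and those called higher 131 to 1408. DESeq2 called 1075 lower and 658 higher. The lower members numbered 2 to 3 without a library and 5 by DESeq2 (inaC, ninaB, ninaA, Galphaq and eys), which also called 1 member, ninaC, higher, against 0 in edgeR and without any library. The other pathway genes called lower numbered 3 to 6 without a library, and those called higher 0 to 2. The near-zero log2 fold change of norpA turned to -0.0043 with upper quartile scaling, -0.012 without a filter, -0.0063 by limma-voom and -0.0068 with the replicate number as a block, and ran from -0.15 to 0.095 with a library left out. Directions of the other 9 members held under all alternatives that tested them; the filter at 1 CPM removed ninaA and Arr2. The level of Galphaq per kilobase moved from 9.67 to 17.3 in control and from 7.13 to 12.8 in dTet discs over its unshared exon bases. The cause of these shifts in calls and direction was not tested.

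The labels do not say whether equal replicate numbers pair the samples. Across all tested genes little pairing was seen, as deviations of same-numbered libraries from their group means correlated at 0.031, 0.021 and -0.1. A pairing that touches only a few genes would not show in these values. With the replicate block 623 genes were lower and 279 higher, 2 members (ninaB and inaC) and 4 other pathway genes (pinta, inaE, PIP5K59B and chp) were lower, and ninaA was at an adjusted p of 0.0867. The lowest control counts among the 10 genes were those of ninaA, ninaC and Arr2, with 1 to 32 per library. Their exact 95% counting intervals for the ratio of control to dTet (5.70 to 87.8, 0.211 to 0.391 and 0.177 to 0.519) do not include 1. These intervals pool the libraries of a group and leave out the spread between replicates. In the edgeR fit, which takes in that spread, ninaC and Arr2 did not pass (adjusted p = 0.0897 and 0.193). ninaA passed close to the threshold (0.0489).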

Other observations

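A few visual genes too rare to test had their counts in the same libraries. Pdh, a retinol dehydrogenase gene of pigment cells, had 3 counts in control replicate 1 and 25 in dTet replicate 2, and 0 in the other 4 libraries. Rh4, an opsin gene of R7 cells, had 3 and 7 counts in these libraries and Rh7, an opsin gene known from the brain, 3 and 6, again with 0 elsewhere. dTet replicate 2 also held all 3 dTet counts of ninaA, the most counts of trpl (29 of 43 in dTet) and the highest dTet value of eys. laza, a lipid phosphatase gene, instead had 5, 9 and 2 counts in controls and 14 in dTet replicate 1, with 0 in the other dTet libraries. These genes were picked out after their values were seen.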
